A study of Mus musculus with 15 samples.

Results

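The CXC chemokine ligands Cxcl1, Cxcl2, Cxcl9, Cxcl10, Cxcl12 and Pf4 were followed through culture of the mouse macrophage-like line RAW 264.7 with and without RANKL, the cytokine that turns macrophage precursors into bone-resorbing osteoclasts. The members were chosen by name, as every probe set annotated to one of these 6 symbols alone, which gave 6 of 8251 genes and 9 of the 12422 probe sets tested. RNA was hybridised to 15 Affymetrix arrays in 9 groups. The 8 control arrays are 1 of day 1, 2 each of days 2, 3 and 4, and 1 of day 5. The 7 RANKL arrays are 1 of day 1 and pairs of days 2, 4 and 5. No RANKL array of day 3 was used here. The medium of all groups was alpha-MEM with serum, and treatment, with RANKL in serum-free medium or without it, took place on days 0 and 3. The labels call RANKL cells multi-nuclear at days 4 and 5 and all other cells mononuclear. RAW 264.7 is a single transformed line, so the arrays are not separate animals. Whether arrays of 1 group come from separate cultures is not in the labels, and the spread behind the p-values may therefore be technical.

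Chemokines are small secreted proteins that direct the migration of leukocytes, and CXC chemokines are named for the residue that separates their first pair of cysteines. Cxcl1 and Cxcl2 attract neutrophils through the receptor Cxcr2, and their genes are classical targets of NF-kB in activated macrophages. Cxcl9 and Cxcl10 attract activated T cells through Cxcr3 and are induced by interferons, Cxcl10 also by NF-kB. Cxcl12, the ligand of Cxcr4, is made mainly by stromal cells, and Pf4 (platelet factor 4) is a product of megakaryocytes and platelets. RANKL itself signals through NF-kB.

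The promoters of the ligands that are textbook targets of NF-kB and of interferon are shown because the results turn on 1 ligand of each kind. RefSeq windows (GRCm38.p6) from 250 bases before to 50 bases after the gene start were found for all 6 genes. The 4 windows shown, each on the strand of its gene, are Cxcl1 (chr5:90890995-90891294, plus strand), Cxcl2 (chr5:90903649-90903948, plus strand), Cxcl9 (chr5:92328030-92328329, minus strand) and Cxcl10 (chr5:92348840-92349139, minus strand). Capitals mark matches, on either strand, to a kB motif (GGGA, any pair of bases, TTCC) or an interferon-stimulated response element (GAAA, any pair of bases, GAAA).
Cxcl1: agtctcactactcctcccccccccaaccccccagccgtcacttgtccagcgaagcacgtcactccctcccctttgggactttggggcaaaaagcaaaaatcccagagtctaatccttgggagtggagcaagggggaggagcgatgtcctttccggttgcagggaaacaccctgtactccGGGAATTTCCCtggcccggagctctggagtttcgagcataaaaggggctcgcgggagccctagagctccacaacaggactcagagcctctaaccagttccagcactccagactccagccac
Cxcl2: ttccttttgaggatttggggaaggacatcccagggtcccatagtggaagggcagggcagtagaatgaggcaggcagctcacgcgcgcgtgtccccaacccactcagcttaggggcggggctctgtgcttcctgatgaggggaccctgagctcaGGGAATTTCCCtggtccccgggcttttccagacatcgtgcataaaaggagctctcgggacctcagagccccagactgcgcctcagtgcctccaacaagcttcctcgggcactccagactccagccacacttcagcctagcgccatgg
Cxcl9: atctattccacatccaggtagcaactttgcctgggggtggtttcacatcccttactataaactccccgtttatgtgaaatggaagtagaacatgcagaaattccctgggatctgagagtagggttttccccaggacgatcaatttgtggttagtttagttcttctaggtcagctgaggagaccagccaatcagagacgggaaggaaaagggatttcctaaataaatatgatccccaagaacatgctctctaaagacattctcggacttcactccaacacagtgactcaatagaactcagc
Cxcl10: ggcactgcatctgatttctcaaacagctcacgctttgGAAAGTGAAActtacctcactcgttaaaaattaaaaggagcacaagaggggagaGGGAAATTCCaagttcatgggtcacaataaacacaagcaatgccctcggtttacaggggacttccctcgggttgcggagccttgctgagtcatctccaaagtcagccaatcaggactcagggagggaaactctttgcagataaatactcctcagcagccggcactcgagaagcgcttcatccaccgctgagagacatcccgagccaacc
Cxcl1 and Cxcl2 carry the same kB match, GGGAATTTCC, beginning 71 and 97 bases before the start. It matches on both strands with a shift of 1 base, so it counts as 2 overlapping matches. Cxcl10 carries a kB match, GGGAAATTCC, 159 bases before the start and a response element match, GAAAGTGAAA, 213 bases before it. Neither motif was found in the windows of Cxcl9, Cxcl12 (chromosome 6) or Pf4 (chromosome 5). Of all 32851 windows of this length, 1.47% held the kB motif and 3.44% the response element. A looser kB motif (GGG, any 5 bases, CC), which 50.8% of windows held, was found in all of the 6 windows but that of Pf4, and a STAT motif (TTCNNNGAA, 8.3% of windows) in none. A match of letters is not a measured binding site.

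Values are MAS5 signals in linear intensity units, scaled to a trimmed mean of 500 on each array, and the array median ran from 103 to 149. The 19 control probe sets for genes of bacteria and yeast served as a measure of background, and the brightest of them ran from 35.3 to 90.0 over the arrays. A signal at or below the brightest on its own array is called not above background. The osteoclast markers Acp5 and Ctsk rose with RANKL on average over the 4 days (adjusted p = 1.58e-06 and 7.19e-06, limma). At day 1 both were lower with RANKL, Acp5 at 535 against 992 and Ctsk at 171 against 271. Of 10 osteoclast markers 5 were called higher over the 4 days and 0 lower, where 0.555% of all probe sets were called higher. On each array 14 to 17 of 19 macrophage markers were above background. On the first principal component RANKL day 5 replicate 2 lay at -10.6, while the other arrays of days 3 to 5 lay between 12.8 and 32.8 and those of days 1 and 2 between -44.2 and -17.5. Some results on the ligands and gene lists are also given without that array. The array is RNA of a whole culture, in which fewer cells of a type and less RNA per cell cannot be told apart.

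Cxcl2 and Cxcl10 had signals well above background on some arrays and near or below it on others, and the other 4 ligands stayed dim. Cxcl2 (101160_at) was above background on 13 of 15 arrays and Cxcl10 (93858_at) on 6. The Cxcl1 probe set 95348_at was above background on 1 array, control day 2 replicate 1 with a signal of 82.5, and 95349_g_at on 0. Cxcl9 (101436_at) ran from 2.39 to 36.1 with a median of 7.08 and was above background on 0 arrays. Of 3 Cxcl12 probe sets, 100112_at ran from 10.4 to 86.3 and was above background on 6 arrays, at 64.7 against 35.3 on the array with the highest ratio, and 160511_at and 162234_f_at on 0. Pf4 (104571_at) ran from 9.19 to 66.2 and was above background on 6 arrays, with 66.2 against 48.1 at its brightest. These 7 dim probe sets give no measurable fold between groups, and a dim signal does not show that a transcript is absent.

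**Figure D1:**
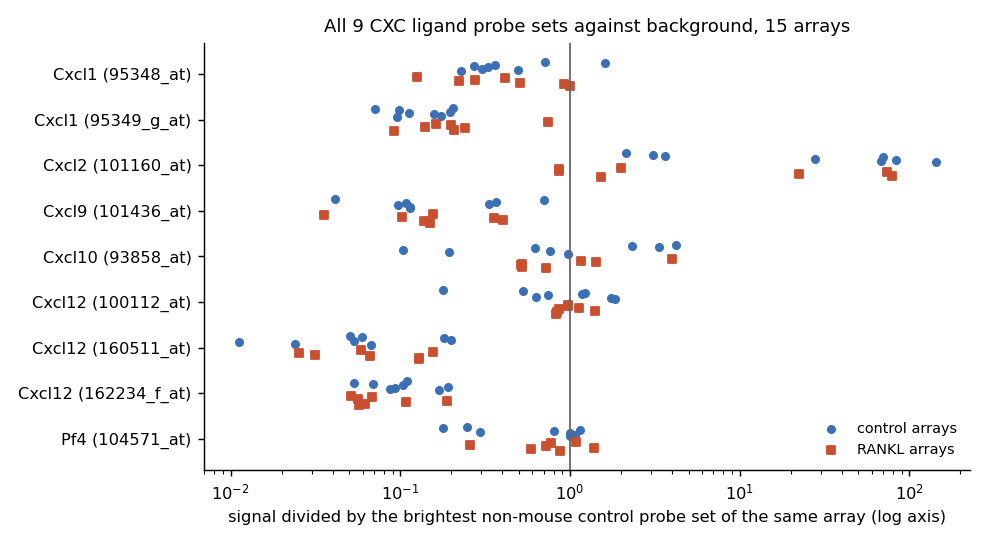
Signal of each of the 9 probe sets divided by the brightest non-mouse control probe set of the same array (log axis), with circles for the 8 control arrays, squares for the 7 RANKL arrays and a line at the background. Cxcl2 reaches far beyond the line, Cxcl10 crosses it on 6 arrays, and the points of the other ligands lie below it or close to it.

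Within the pair of NF-kB type ligands, Cxcl2 was above background on most arrays and Cxcl1 on 1, and the kB match in both promoter windows has the same letters. In control cells the Cxcl2 signal was 123 at day 1, and 158 and 181 at day 2. It was 3467 and 2501 at day 3, 3497 and 3379 at day 4, and 5040 at day 5. All 5 control arrays of days 3 to 5 were above all 3 of days 1 and 2, as they were for 10.7% of all probe sets. The lowest of these later signals was 13.8 times the highest of the earlier ones. In RANKL cells the signal was 99.1 at day 1, 60.6 and 41.5 at day 2, 3364 and 1071 at day 4, and 4067 and 83.6 at day 5. Of the 4 late RANKL arrays 3 were thus at 1071 or more, while RANKL day 5 replicate 2 was at the level of day 1.

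Cxcl2 rose with culture time, taken as the mean of days 4 and 5 minus the mean of days 1 and 2, in both kinds of cell. In control cells the log2(signal + 32) difference was 4.57 ± 0.99 (SE, adjusted p = 0.0139, limma), the largest of all 12422 probe sets. Over the alternatives it ran from 4.12 to 4.88, with adjusted p from 7.88e-05 to 0.126. In RANKL cells the rise was 3.47 ± 0.91 (adjusted p = 0.0244, limma), with the RANKL day 2 arrays not above background. RANKL days 4 and 5 were at least 18.0-fold higher than RANKL day 2, and at least 41.9-fold without RANKL day 5 replicate 2. The rise was 4.76 without that array (adjusted p = 7.82e-05, limma) and 2.19 without RANKL day 5 replicate 1 (adjusted p = 0.00496, limma). These were its highest and lowest values over the alternatives, with adjusted p up to 0.0768. The call in RANKL cells was lost without RANKL day 2 replicate 2 (adjusted p = 0.0745) or RANKL day 4 replicate 1 (adjusted p = 0.0702). With the 3' over 5' signal of beta-actin, a measure of RNA quality, as a covariate, both calls were lost (adjusted p = 0.126 and 0.0768). The rises themselves were then 4.88 and 3.67. Over all probe sets the calls then went from 1348 to 169 in control cells and from 1839 to 1086 in RANKL cells.

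The step in control cells lay between day 2 and day 3, where the mean signal went from 170 ± 16.3 to 2984 ± 683 (SD, n = 2 each), 17.6-fold. On the log2(signal + 32) scale the difference was 3.89 ± 1.15 and did not pass (adjusted p = 0.0648, limma; 0.00094 to 0.255 over the alternatives). It was second in size among all probe sets. Without either RANKL day 5 array, which enters this difference through the shared estimate of spread alone, adjusted p was 0.000946 (without replicate 1) or 0.00094 (without replicate 2). Treatment was repeated on day 3 per the labels, so days 3 to 5 and the repeat of it cannot be told apart. Whether control cells then got new medium, and whether RNA of day 3 was taken before or after, is not stated in the labels.

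**Figure D2:**
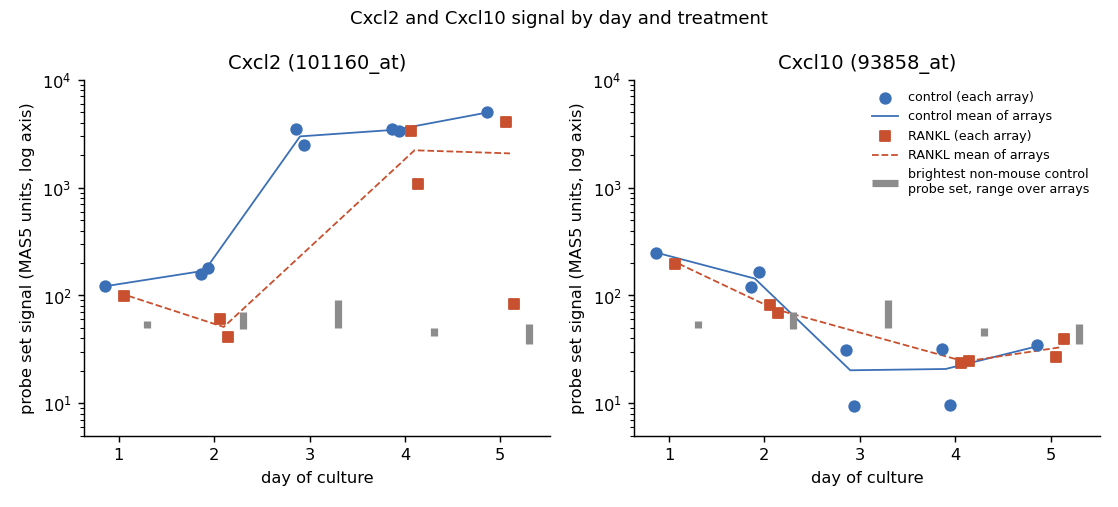
Probe set signal (log axis) of Cxcl2 and Cxcl10 on each array by day of culture, with circles and solid lines for control cells, squares and dashed lines for RANKL cells (lines join means of arrays) and grey bars for the range of the brightest non-mouse control probe set. Cxcl2 is at 2501 or more on the 5 control arrays of days 3 to 5 and splits at RANKL day 5 into 4067 and 83.6, and Cxcl10 is at 39.3 or less on all 9 arrays of days 3 to 5.

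Cxcl2 was lower with RANKL on each day by its array values, but no RANKL difference passed the test. All 7 RANKL arrays had a lower signal than every control array of the same day, as they had for 1.51% of all probe sets. At day 2 both RANKL arrays were not above background (60.6 against 70.4, and 41.5 against 48.4), so control cells were at least 2.90-fold higher. At day 4 the RANKL signal of 3364 lay just under the control signals of 3379 and 3497, and 1071 lay 3.21-fold below their mean. Averaged over days 1, 2, 4 and 5 the RANKL difference was -1.31 ± 0.67 (adjusted p = 0.518, limma), running from -1.96 to -0.67 over the alternatives. It was -1.29 ± 1.15 at day 2, -0.84 ± 1.15 at day 4 and -0.25 ± 1.62 at day 1, where 1 array stood against 1. Adjusted p was 0.797, 0.944 and 1.00 (limma).

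The RANKL difference at day 5 depended on which of the RANKL arrays was used. With both it was -2.88 ± 1.41 (adjusted p = 0.388, limma). Without RANKL day 5 replicate 2 it was -0.31, since the remaining signal of 4067 was 1.24-fold below the control array. Without RANKL day 5 replicate 1 it was -5.46 ± 0.58 (adjusted p = 0.000886, limma), since 83.6 was 60.3-fold below that array. The average over the 4 days was then -1.96 ± 0.25 (adjusted p = 0.00216, limma), against -0.67 without replicate 2. The late minus early RANKL difference was -1.09 ± 1.35 (adjusted p = 0.86, limma), and it was 0.19 without RANKL day 5 replicate 2.

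The 9 groups ordered by mean log2(signal + 32) of Cxcl2 ran from RANKL day 2 (6.37) through RANKL day 1, control day 1 and control day 2 (7.65) to RANKL day 5 (9.43). RANKL day 4 (10.9), control day 3, control day 4 and control day 5 (12.3) followed. Leaving out the RANKL day 5 pair, the pooled SD within groups was 0.55, and 1.57 with it. Gaps between neighbours at the low end, from RANKL day 2 to control day 2, were 0.25 to 0.67, and those from RANKL day 4 to control day 5 were 0.22 to 0.62. These gaps are of the size of the spread between arrays, the widest being 0.67 against 0.55, and the groups of 1 array have no spread of their own. The RANKL day 5 mean lies between 2 arrays that differ 48.7-fold and describes neither of them.

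Cxcl10, the ligand of the interferon type that was above background, went the other way with culture time. In control cells its signal was 245 at day 1, 120 and 167 at day 2, 31.1 and 9.38 at day 3, 31.95 and 9.67 at day 4, and 34.5 at day 5. RANKL cells had 197 at day 1, 81.6 and 68.6 at day 2, 23.9 and 24.9 at day 4, and 26.8 and 39.3 at day 5. All 9 arrays of days 3 to 5 were below all 6 arrays of days 1 and 2, as they were for 3.48% of all probe sets. None of these 9 arrays was above background, so falls are bounds. Signals at days 1 and 2 were at least 4.06-fold higher than at days 4 and 5 in control cells and at least 2.07-fold higher in RANKL cells.

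The falls of Cxcl10 passed the test in both kinds of cell. In control cells the log2(signal + 32) difference was -1.91 ± 0.27 (adjusted p = 0.00211, limma; 0.00128 to 0.0536 over the alternatives). In RANKL cells it was -1.37 ± 0.25 (adjusted p = 0.00419, limma; 0.00237 to 0.0679 over the alternatives). The RANKL call was lost without RANKL day 1 replicate 1, where the difference was -0.82 (adjusted p = 0.0679, limma). From control day 2 to day 3 the difference was -1.77 ± 0.31 (adjusted p = 0.00895, limma), with control day 2 at least 2.12-fold higher. This call was lost without control day 2 replicate 1 (adjusted p = 0.058), control day 2 replicate 2 (0.0615) or control day 3 replicate 2 (0.086), with differences of -1.96, -1.57 and -1.46. Over all its alternatives adjusted p ran from 0.00653 to 0.086. The same RNA quality covariate also ended the calls in control cells, with differences of -1.88 for culture time (adjusted p = 0.0536, limma) and -1.74 for day 3 (adjusted p = 0.0633, limma). Over all probe sets it took the culture time calls in control cells from 1348 to 169.

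With RANKL, Cxcl10 did not pass at any day. At day 2 the 2 RANKL arrays (81.6 and 68.6) were below both control arrays (120 and 167), a difference of -0.70 ± 0.31 (adjusted p = 0.482, limma). Averaged over the 4 days the difference was -0.22 ± 0.18 (adjusted p = 0.78, limma). At days 4 and 5 no array was above background, so no RANKL difference can be read there. In the order of group means of log2(signal + 32), the 5 groups of days 3 to 5 lay within 0.38 of each other (5.68 to 6.06, pooled SD 0.29). RANKL day 2 (6.74), control day 2 (7.44), RANKL day 1 (7.84) and control day 1 (8.12) followed, and neighbours among the last 3 were 0.40 and 0.27 apart.

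**Figure D3:**
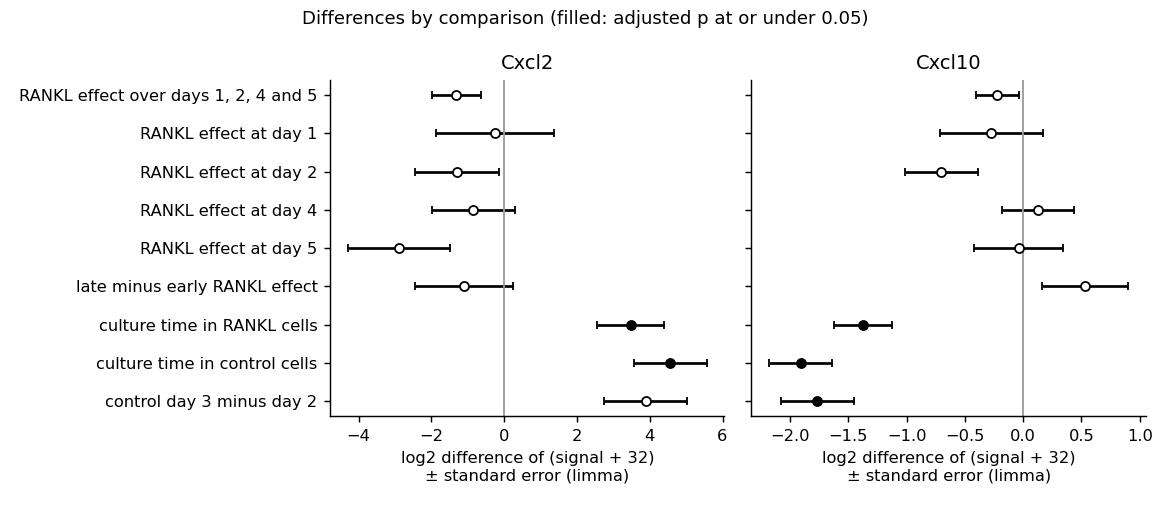
Log2 differences of (signal + 32) for Cxcl2 and Cxcl10 in the 9 comparisons, with bars for the standard error from limma, filled points where adjusted p was at or under 0.05 and different scales on the horizontal axes. The culture time differences are positive for Cxcl2 and negative for Cxcl10, and the RANKL differences are open points for both.

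Set side by side, Cxcl2 and Cxcl10 differed in direction with time (4.57 and -1.91 in control cells, 3.47 and -1.37 in RANKL cells). The difference between the genes was not tested. Of the 9 probe sets, 2 passed with culture time in control cells, Cxcl2 higher and Cxcl10 lower, where 10.9% of all probe sets passed, 5.98% higher and 4.87% lower. In RANKL cells 3 passed, 1 higher and 2 lower, where 14.8% of all did, 8.98% higher and 5.82% lower. The third was the Cxcl1 probe set 95349_g_at (-0.42 ± 0.11, adjusted p = 0.0215, limma; 0.0112 to 0.76 over the alternatives). None of its signals was above background, and without RANKL day 1 replicate 1, its brightest array at 36.9, the difference was -0.08. Without RANKL day 5 replicate 2 it did not pass either (adjusted p = 0.0629, limma), which left 2 of the 9. From control day 2 to day 3 Cxcl10 alone passed, being lower, where 7.08% of all did and 2.99% were lower. For RANKL, 0 of 9 passed on average over the days, where 1.09% of all passed (limma; 1 of 9 had an unadjusted p under 0.05). The count was also 0 of 9 at day 1 (0% of all), day 2 (0.853%), day 4 (0.266%) and day 5 (0.918%), and for the late minus early difference (0.0403%). Among these 9 probe sets, unadjusted p was under 0.05 for 1, 2, 0, 1 and 1 in turn (limma).

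The RANKL day 5 gap of Cxcl2 was the largest of all probe sets. Replicate 1 exceeded replicate 2 by 5.15 on the log2(signal + 32) scale, the first of 12422 by size. At RANKL day 4 the gap was 1.62, which ranked 63, while in control cells and at RANKL day 2 the gaps ran from 0.05 to 0.47 in size. Cxcl10 differed by 0.28 between the RANKL day 5 arrays, in the other direction. Among 39 NF-kB target genes of inflammation, 12 were higher in replicate 1 by over 1 and 0 lower, with a median of 0.65. Over all probe sets 2.70% were higher and 1.30% lower by that size, with a median of -0.01. Of 14 CC chemokine ligands, Ccl3 (2.22) and Ccl4 (3.33), named after their values were seen, were higher by over 1 and 0 lower. Of 50 interferon response genes 3 were higher and 0 lower, with a median of -0.03. Of 19 macrophage markers 4 were higher and 0 lower, with a median of 0.38, among them Mpeg1, a pore-forming protein of macrophages (2649 against 225), and C3ar1, a complement receptor (243 against 70.0). Of 10 osteoclast markers 0 differed by over 1 in either direction, Acp5 being lower in replicate 1 by 0.39. The 3' over 5' signal of beta-actin was 1.08 on replicate 1 and 1.02 on replicate 2. Whether any of these moves bears on the Cxcl2 gap was not tested.

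**Figure D4:**
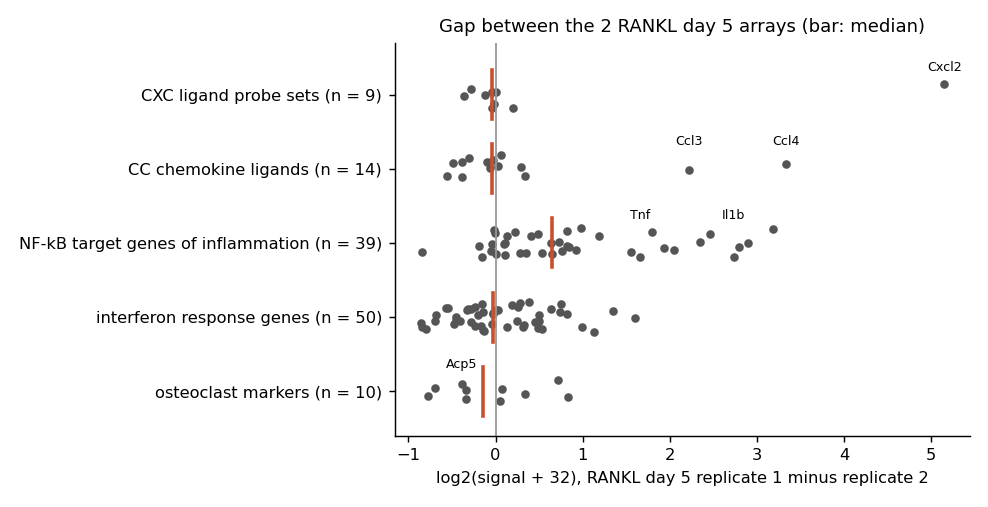
Differences of log2(signal + 32) between the RANKL day 5 arrays, replicate 1 minus replicate 2, for the 9 CXC ligand probe sets and the genes of 4 lists (points, with bars for the list medians). Cxcl2 lies at 5.15, the other CXC ligand probe sets lie close to 0, and the NF-kB targets have a median of 0.65.

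By a fixed rule, the 3 genes whose pattern over the 15 arrays was most like that of Cxcl2 were named out of 5638 candidate probe sets. They were Cox6a2, a subunit of cytochrome c oxidase (Pearson r = 0.98), Trib3, a pseudokinase (r = 0.98), and Gadd45a, a growth arrest gene (r = 0.97). All 3 also split at RANKL day 5, Cox6a2 into 769 and 25.4, Trib3 into 985 and 78.8, and Gadd45a into 609 and 46.1. The correlations are a description. Their points share the step after day 2 and that array, and come from 9 groups. Cxcl10 was not matched, since its median signal of 34.5 was below the rule's minimum of 100.

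The other genes of the chemokine system were read from lists of ligands and receptors. Of 5 other CXC, CX3C and XC ligands represented, 0 passed with RANKL, where 1.09% of all probe sets passed over the days. Cxcl14 alone fell with culture time in control cells, by 1.13 (adjusted p = 0.019, limma, and 0.151 without the control day 5 array), where 4.87% of all fell. Of 14 CC ligands, 0 passed with RANKL over the days, and Ccl2, Ccl5 and Ccl7 were called lower at day 5, where 0.918% of all probe sets were called and 0.403% lower. These calls are against the single control day 5 array, which stood far above the other late controls. It held 4786 for Ccl2, a monocyte attractant, against 577 to 718 at control days 3 and 4, 454 for Ccl7 against 61.4 to 110.07, and 135 for Ccl5 against 16.8 to 33.2. At day 4 the RANKL difference of Ccl2 was 1.18, in the other direction. Without RANKL day 5 replicate 2 Ccl2 alone of the 14 passed at day 5. Ccl2 rose with culture time in RANKL cells by 1.54 ± 0.19 (1.40 without that array), and its rise of 2.02 ± 0.21 in control cells did not pass without the control day 5 array (0.60, adjusted p = 0.152, limma). Ccl7 passed with culture time in control cells, where days 4 and 5 were at least 2.76-fold higher than days 1 and 2, which were not above background. That bound includes the 454 of control day 5, beside 108 and 63.6 at control day 4. Ccl5 was 163 at RANKL day 1 and 7.26 to 40.7, not above background, on the other 6 RANKL arrays. Its culture time call in RANKL cells was lost without that day 1 array (adjusted p = 0.183, limma). Control cells likewise had 156 for Ccl5 at day 1, and 20.2 and 21.1 at day 2. The list's median with culture time in control cells was -0.01, against -0.04 over all probe sets. Of 9 receptors and other binding proteins of CXC ligands, 0 passed with RANKL, where 1.09% of all probe sets passed over the days. With culture time 1 was called in each kind of cell, where 10.9% of all were called in control cells and 14.8% in RANKL cells. Sdc1, a heparan sulfate proteoglycan, fell in control cells (-1.13 ± 0.31), a call lost when any 1 of 8 arrays was left out. Ackr1, a decoy receptor, was called lower in RANKL cells, where it was 63.1 at day 1 and 12.1 to 24.7, not above background, on the other 6 arrays. Without the day 1 array its difference was -0.16 (adjusted p = 0.529, limma). Cxcr2, the receptor of Cxcl1 and Cxcl2, ran from 2.97 to 39.7 in signal, and Cxcr3, that of Cxcl9 and Cxcl10, from 19.8 to 174.

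The pathways behind each kind of ligand were read in the same way. Of 39 NF-kB targets of inflammation, 12 rose and 1 fell with culture time in control cells (median 0.55 against -0.04 over all probe sets), where 5.98% of all probe sets rose and 4.87% fell. In RANKL cells 9 rose and 1 fell (0.45 against 0.05), where 8.98% of all rose and 5.82% fell. The number that rose went up or down depending on which array was left out. The list median then ran from 0.28, leaving out replicate 1 of RANKL day 5, to 0.59, leaving out replicate 2 of RANKL day 4. Macrophage markers moved in the same direction, 7 of 19 rising and 0 falling in control cells (3 rising without control day 1). In RANKL cells 4 rose and 0 fell. The number rising depended on the array left out in both kinds of cell. In RANKL cells some were called lower without RANKL day 2 replicate 1 or RANKL day 5 replicate 1. The median of the markers in RANKL cells ran from 0.11, without RANKL day 5 replicate 1, to 0.30, without RANKL day 5 replicate 2. The part of macrophage markers in the counts was not tested. Tnf, a major inflammatory cytokine, rose by 2.29 ± 0.48 in control cells, a call that was lost without the control day 5 array (1.38, adjusted p = 0.141, limma). In RANKL cells it rose by 2.13 ± 0.44, and by 2.54 without RANKL day 5 replicate 2. Saa3, an acute-phase protein, rose in control cells by 3.68 ± 0.50 from a day 1 signal of 23.8, not above background, and Ikbke, a kinase of interferon and NF-kB signalling, by 2.44 ± 0.36. With RANKL 2 of the 39 rose over the 4 days and 0 fell, where 0.555% of all probe sets rose and 0.539% fell. The median was -0.02 against 0.01, and Plau, urokinase, was among those that rose, by 1.20 ± 0.20. Without the control day 5 array 0 passed in either direction, and without RANKL day 5 replicate 1 the counts were 2 and 6. The differences of Tnf (-1.15), Saa3 (-1.48) and Ikbke (-1.09) with RANKL did not pass, but that of Saa3 did without RANKL day 5 replicate 2 (-1.17, adjusted p = 0.00653, limma).

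Of 50 interferon response genes, 11 fell and 0 rose with RANKL over the 4 days (median -0.50 against 0.01), where 0.539% of all probe sets fell and 0.555% rose. The count depended on which arrays were used. Without the control day 5 array, which takes day 5 out of the average, the median was -0.48 and the count was 0. It was 18 and 19 without RANKL or control day 1, 5 without RANKL day 2 replicate 2 or control day 2 replicate 2, 6 without control day 4 replicate 1, 7 without control day 2 replicate 1 or RANKL day 4 replicate 2, and 8 to 15 without each of the other arrays. Macrophage markers fell in the same comparison, 4 of 19 with 0 rising (median -0.15), and 0 fell without the control day 5 array. Their part in the count was not tested. Usp18, a protease of the interferon response, fell by 1.68 ± 0.31 and Isg15, a ubiquitin-like protein, by 1.43 ± 0.30, both above background on all 15 arrays. Isg20, an exonuclease, passed too, but on all 6 RANKL arrays of days 2 to 5 it was not above background (14.4 to 24.4), and its fall is a bound. Control cells were at least 4.10-fold higher at day 2, 2.18-fold at day 4 and 4.95-fold at day 5. Ifi47, an interferon-induced GTPase, was above background on 1 of those 6 arrays, and control cells were at least 3.84-fold higher at day 2 and 2.98-fold at day 5. Without the control day 5 array none of these 4 calls was kept (adjusted p from 0.0753 to 0.274, limma), with differences of -1.22 for Usp18 and -1.28 for Isg15. Cxcl10 and Cxcl9 did not pass there. Over culture time in the controls, 3 interferon response genes rose and 6 fell (median -0.25 against -0.04), where 5.98% of all probe sets rose and 4.87% fell. Between 1 and 3 fell without control day 1, either control day 2 array or control day 4 replicate 2. In RANKL cells 2 rose and 6 fell (-0.28 against 0.05), where 8.98% of all rose and 5.82% fell, and 0 fell without the RANKL day 1 array. Leaving out replicate 2 of RANKL day 2 gave 3. The 4 genes just named, picked by size of RANKL difference, did not pass with culture time. Cxcl10 fell with culture time in both kinds of cell, in each of which 6 of the 50 listed genes fell. Irf1 stands in both the NF-kB and the interferon list. Of 11 interferons, receptors and kinases 0 passed with RANKL, where 1.09% of all probe sets passed over the days. Jak1, a kinase of the interferon receptors, rose with culture time in control cells by 0.83 and in RANKL cells by 0.68, and both calls were kept with each array left out in turn. Ifnar1 and Ifngr1, receptor chains, passed in RANKL cells (0.67 and 0.65), but not without RANKL day 5 replicate 2 (adjusted p = 0.0626 and 0.102, limma). Ifnar1 was 824 and 1183 at RANKL day 4, and 402 and 498 at day 5, within the 342 to 541 of RANKL days 1 and 2. In control cells Ifnar1 was 317 to 405 at days 1 and 2, 638 to 856 at days 3 and 4, and 433 at day 5. Ifngr1 in control cells was 172 to 267, 334 to 409 and 157 at these times.

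Markers of stromal cells, which make Cxcl12, and of megakaryocytes and platelets, which make Pf4, were read beside those ligands. The summed signal of 12 stromal and osteoblast markers ran from 1421 to 2025 at days 1 and 2 and from 1203 to 2011 later, and 0 passed in any comparison. On each array 2 to 7 of the 12 were above background. Col1a1, a collagen of that list, was above background on all 15 arrays, at 92.7 to 363. Pdgfrb, of the same list, was above it on 2 control and 0 RANKL arrays. For 7 megakaryocyte and platelet markers the sum ran from 229 to 362 at days 1 and 2 and from 188 to 1118 later. It was highest on RANKL day 5 replicate 2, where Selp, a platelet and endothelial adhesion gene named after its values were seen, was at 792. Vwf, of the same list, passed with culture time in RANKL cells (1.04 ± 0.24). Its signal was 213 and 321 at RANKL day 4, and 58.1 and 21.6 at day 5, within the 12.7 to 65.4 of RANKL days 1 and 2. In control cells Vwf was 13.8 to 21.5 at days 1 and 2, 105 to 110 at days 3 and 4, and 8.30 at day 5. Pf4 on RANKL day 5 replicate 2 was 47.7, not above its background of 54.7. Endothelial, T cell, B cell and neutrophil markers (31 genes) had 0 past the threshold in any comparison.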

How the data were processed

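RNA of RAW 264.7 cells was measured on 15 Affymetrix arrays, 1 sample on each. The authors deposited a linear intensity for each probe set, the signal of MAS5, per the submitters' processing notes; its version is not given in the sources used here. The 2% trimmed mean was 500 on each array, so the authors had scaled them, and no further normalization was applied. The 66 control probe sets were left out of the tests, and the other 12422 were tested without a filter as log2(signal + 32). Gene names come from the platform annotation, which gives 1 gene for 10833 probe sets, several for 396 and none for 1193. For lists, each gene was read from its brightest probe set by mean log2 signal.

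With limma 3.58.1 under R 4.3.3, lmFit estimated a mean for each of the 9 groups from all 15 arrays together, leaving 6 residual degrees of freedom, and eBayes used an intensity trend. A group of 1 array thus borrows the spread of the other groups. Leaving out such an array takes its day out of the RANKL average. The p-values are two-sided and were adjusted over all probe sets by Benjamini-Hochberg within each of 9 comparisons, with a threshold of 0.05. The procedure was tested on simulated data with independent noise for each probe set and array. That simulation held no array that stands apart from its group, so it does not cover such a case. The number of arrays limits the precision.

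The members, gene lists and comparisons were chosen with earlier results of these data known. The 6 ligands are always named, with up to 4 genes of each list by size of RANKL difference among those past the threshold in any comparison, and the 3 genes most correlated with a member of median signal 100 or more. Alternatives changed the pseudocount to 1 or 100, normalized by quantiles, kept the upper 50% of probe sets, dropped the intensity trend, blocked on replicate number, took the beta-actin ratio as a covariate, or left out the day 1 pair or each array.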

Additional observations from a re-analysis of the deposited data

How the results depend on the processing

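Cxcl2 kept its direction for the RANKL difference at each day and over the days, and for culture time, in all alternatives. Its late minus early RANKL difference turned to 0.19 without RANKL day 5 replicate 2 (-2.38 to 0.19 with each array left out). Cxcl10 kept its direction for culture time, and its RANKL difference turned where signals were not above background, at day 4 to -0.18 without control day 4 replicate 2 (-0.18 to 0.44 with each array left out), and at day 5 to 0.021 with the replicate block and 0.10 without RANKL day 5 replicate 1. The cause was not tested.

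CXC ligand probe sets past the threshold numbered 1 with culture time in RANKL cells in the upper 50% of probe sets, with the beta-actin covariate and without the day 1 pair (1 to 3 with each array left out). In control cells they numbered 1 in the upper 50% and 0 with the covariate (2 to 3 with each array left out). For control day 3 minus day 2 they numbered 2 with the replicate block and 0 with the covariate (0 to 2). For RANKL over the days and at day 5 they numbered 0 to 1, the 1 being without RANKL day 5 replicate 1. In the upper 50% fewer of the 9 were tested. Cxcl10 and the Cxcl1 probe set that passed with culture time in RANKL cells were not among them. Their calls were removed there by the filter and not lost in a test, so the lower counts in the upper 50% do not show a weaker result.

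Over all probe sets, 136 passed for RANKL over the days, 218 in the upper 50%, 64 with the covariate and 432 without the day 1 pair (11 to 427 with each array left out). At day 2 it was 106, 68 with no intensity trend and 34 with the covariate (2 to 147), at day 4 33 and 12 with the covariate (9 to 54), and at day 5 114, 244 in the upper 50% and 64 with the replicate block (52 to 355). The late minus early count was 5, 12 in the upper 50%, 3 with no trend and 2 without the day 1 pair (2 to 21). Culture time gave 1839 in RANKL cells, 1086 with the covariate (1146 to 1972), and 1348 in control cells, 169 with the covariate and 704 without the day 1 pair (700 to 1410). Control day 3 minus day 2 gave 880 and 152 with the covariate (49 to 981).

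Replicate numbers did not pair the arrays. Over 15 pairs of groups the correlation of replicate differences ran from -0.17 to 0.12, and 1 was over 0.1. With the replicate block Cxcl2 at control day 3 minus day 2 was 3.89 (adjusted p = 0.0466, limma; 0.00094 to 0.255 over the alternatives). With 1 or 2 arrays a group, day 1 and day 5 rest on single control arrays, and differences between signals not above background cannot be read.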
